A study of Drosophila melanogaster with 9 samples.

Results

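Odorant-binding proteins are small secreted proteins with a pocket for hydrophobic molecules. The Obp genes of Drosophila melanogaster are named for the chromosome band in which they lie, and every listed gene whose symbol starts with Obp followed by a digit was taken. This rule gave 41 of the 14479 features listed in the deposited tables, of which 39 stood in both tables, and Obp56e and Obp56f stood in the 412KD table alone. The reference annotation names 51 such genes, and the other 10 (Obp47b, Obp50b, Obp50c, Obp50d, Obp51a, Obp56i, Obp57d, Obp58c, Obp58d and Obp85a) were not analysed here. The gene lush also encodes an odorant-binding protein but does not carry the name, and it is given beside the family for comparison.

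The proteins were first known from the antenna, where support cells secrete them into the fluid around olfactory neurons and where they carry odorants and pheromones to the receptors. Other members are made in taste bristles of the mouthparts and legs, in the fat body, in glia or in the male reproductive tract, so the name describes a protein fold more than a role in smell. A thorax has no antenna, but it carries fat body, nerve, cuticle and, where they were left on, legs and wings with taste bristles. The sources used here do not say whether the appendages were kept.

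RNA was extracted with Trizol from pooled thoraces of female flies on adult day 20 and sequenced paired-end, in a series on retrotransposons and aging. All groups shared the genetic background W1118 (BL5905) and expressed a short hairpin RNA under Act5C, the promoter of an actin gene active throughout the body. The hairpin was directed against the retrotransposon 412 in the group labelled 412KD and against roo in the group labelled RooKD, and it was a scrambled hairpin in the group labelled scramble. Each of the 3 groups held 3 libraries. Nothing in the labels ties a pool to its own culture of flies, so every p-value here rests on variation among pools that may be technical. In such bulk samples, fewer cells of a type and less RNA per cell cannot be told apart.

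Read totals ran from 17590293 to 26176964 per library. No pair of replicates agreed within sampling noise (a chi-square test over genes gave 21 to 164 per degree of freedom), so each counted as its own sample. 412KD replicate 3 and RooKD replicate 1 stood apart, at −63.2 and −52.2 on the leading principal component against −17.9 to 32.4 for the other libraries. The same 2 libraries carried the most ovary and germline transcripts, with summed normalized counts of 41600 and 23370, against 4078 in 412KD replicate 1. The 6 remaining libraries had 429.6 to 579. The targeted elements were not seen to be lower in the libraries labelled as their knockdowns. For 412 the reads were too few to show a knockdown or its absence. Features of 412 held 10, 23 and 17 reads in 412KD and 15, 15 and 10 in scramble, and features of roo held 246, 180 and 238 reads in RooKD and 304, 191 and 185 in scramble. Directions below are therefore drawn between libraries as they are labelled.

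A handful of genes made up most of the RNA of the family in the thorax, and 20 of the 41 listed genes were near silent. By the deposited FPKM, reads per kilobase of gene scaled to the library by the authors, 17 genes had a mean level of at least 10 over the 9 libraries and 20 had at least 1. Obp99c stood first with a mean of 683 FPKM (range 391 to 1034), which placed it at rank 141 of 14473 features. Below it came Obp57c with 172 FPKM (136 to 219.9), Obp99a with 121 (40.2 to 340.5), Obp19d with 85.6 (72.0 to 104), Obp57a with 84.3 (60.0 to 103) and Obp56d with 71.6 (54.5 to 91.3). The range of Obp99a overlapped those of Obp57c, Obp19d, Obp57a and Obp56d, and the last 3 overlapped each other, so the order below Obp99c is not separated by the spread between libraries except for Obp57c over Obp19d, Obp57a and Obp56d. The top 6 genes held 83.5% of the summed FPKM of the family, and Obp99c alone held 45.3% of its reads.

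A middle tier followed in which neighbours in the order also overlapped. It ran through Obp19b (mean 37.5 FPKM), Obp18a (36.6), Obp49a (26.3), Obp57b (25.8), Obp44a (21.4), Obp56a (19.6), Obp46a (14.4), Obp83ef (13.95), Obp83cd (11.2), Obp56g (10.7), Obp99b (10.7) and Obp8a (6.03). Obp19c (1.58), Obp73a (1.03) and Obp83g (0.714) lay lower and were the last that could be tested. The remaining 20 genes never passed the filter on low counts, had totals of 4 to 68 reads over the libraries and reached at most 27 reads in any library.

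**Figure D1:**
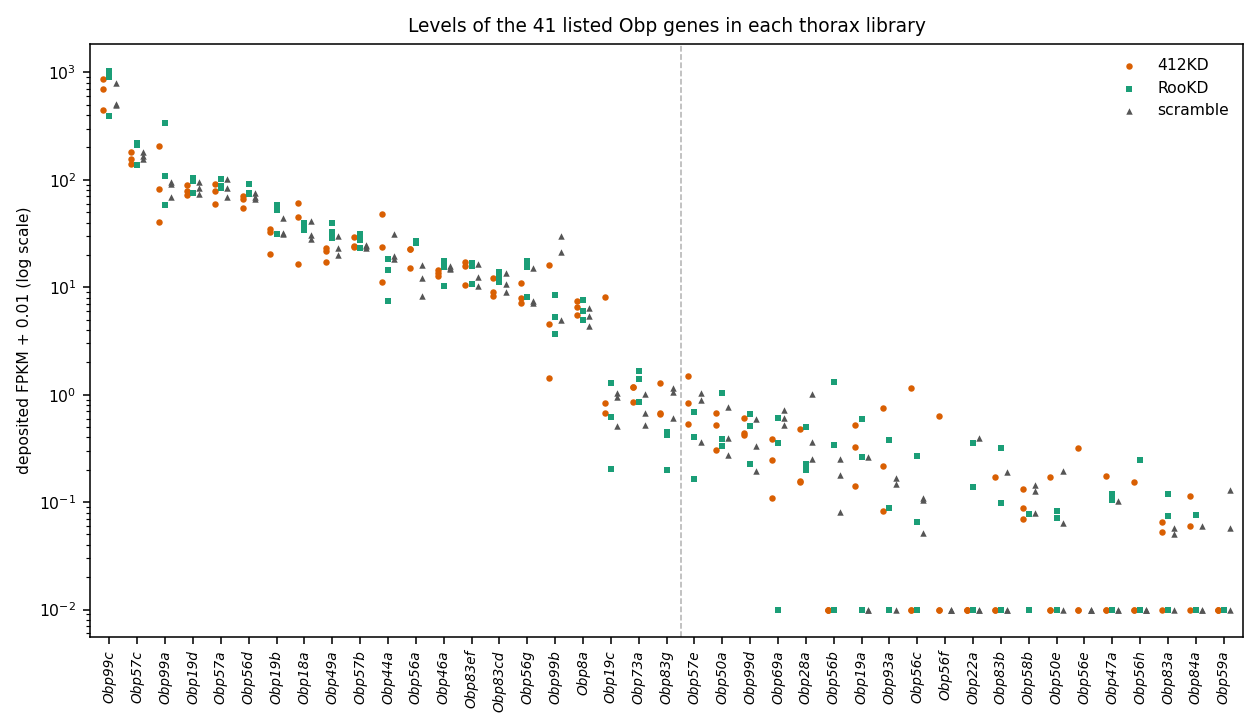
Deposited FPKM plus 0.01 (vertical log axis) of the 41 listed Obp genes (horizontal axis, by mean level) in each library, with circles for 412KD, squares for RooKD and triangles for scramble. The dashed line separates the 21 genes that could be tested from the 20 that could not. Points at 0.01 are libraries listed at 0, and Obp99c spans 391 to 1034 FPKM.

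The near-silent members included several antennal genes, and those named here are not a full list. Members known from the antenna were not all near silent, since Obp19d, known from antennal and taste organs, was among the most abundant. Obp83a and Obp83b, the abundant OS-F and OS-E proteins of pheromone- and odour-sensing hairs, held 7 and 8 reads in all 9 libraries together. Obp84a held 5 reads, Obp28a, which binds fruit odorants, held 39, and Obp69a held 40. Obp59a, needed for humidity sensing in the antenna, held 4 reads, all in scramble. Reads of the olfactory co-receptor gene Orco were as scarce, at 0 to 5.19 normalized counts per library. Reads of the pheromone-binding gene lush numbered 13, 30 and 11 in the 412KD libraries, 8, 9 and 4 in RooKD, and 8, 15 and 33 in scramble. It was thus detected in every library at a low level, as were Obp28a, Obp99d, Obp57e and Obp50a.

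Genes known from male seminal fluid were mostly silent in these females. Obp56e and Obp56f held 4 and 8 reads, all in 412KD replicate 2, and Obp22a held 13 reads spread over 3 libraries. Among this class Obp56g and Obp8a were expressed. Obp56g, needed for the mating plug, was at 7.10 to 17.5 FPKM and Obp8a was at 4.33 to 7.66 FPKM. Obp56h, linked to mating behaviour and cuticular hydrocarbons, held 5 reads. The last low genes were Obp57e, a taste gene for fatty acids of noni fruit (58 reads in all), Obp50a (68), Obp99d (41), Obp56c (37), Obp19a (28), Obp56b (25), Obp93a (21), Obp58b (10), Obp50e (9) and Obp47a (5). Of these, Obp56c had 27 of its 37 reads in 412KD replicate 2 and Obp56b had 16 of its 25 in RooKD replicate 1, so single libraries carried them.

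Some genomic clusters were silent or expressed as a whole and others were mixed. With genes joined when closer than 20000 bases, 33 of the 51 annotated genes fell into 10 clusters and 18 stood alone. All 41 listed genes had the same coordinates in the authors' tables and in the reference annotation, on build dm6. The cluster of Obp57c, Obp57b and Obp57a (2R, 20503584 to 20505758) was expressed throughout, with a summed mean of 282 FPKM, while Obp57e nearby (2R, 20547816 to 20548291) was at 0.704 FPKM. Obp57e was the 1 listed gene of its own cluster. The listed genes of 3 further clusters were all near silent. Their summed means were 0.572 FPKM for Obp50a and Obp50e, 0.0910 for Obp59a and Obp58b, and 0.122 for Obp83a and Obp83b. In the cluster from Obp56a to Obp56f (2R, 19697723 to 19713976), Obp56d and Obp56a were expressed and the other 4 genes were at 0.0514 to 0.236 FPKM. On X (20415744 to 20420979) Obp19d and Obp19b stood at 85.6 and 37.5 FPKM, with Obp19c at 1.58 between them and Obp19a at 0.227 beside them. In the group at 3R, 29671657 to 29689311, Obp99a and Obp99c together held 55.1% of the family's summed FPKM. A protein domain annotated as a pheromone/odorant-binding family (PF01395) was given by the authors for 31 of the 41 genes, and Obp57a, Obp57b, Obp46a and Obp49a were expressed members without it.

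The summed level of the family overlapped between the groups. Its normalized count was 25250, 20040 and 16060 in 412KD, 29760, 25390 and 16280 in RooKD, and 17950, 18330 and 22290 in scramble. RooKD replicate 1 was the highest library, and 412KD replicate 3 and RooKD replicate 3 were the lowest. Means were 20450 ± 4609 in 412KD, 23810 ± 6877 in RooKD and 19520 ± 2404 in scramble (SD, n = 3), and the family took 0.0713% to 0.134% of all reads of a library. Without Obp99c the sums were 10960 ± 1665, 12950 ± 2065 and 11060 ± 352 in the same order.

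**Figure D2:**
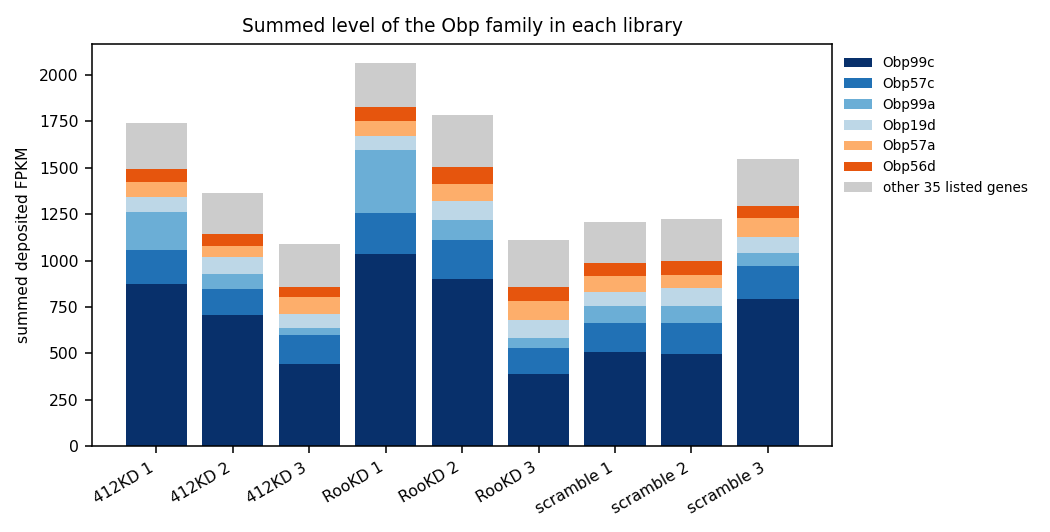
Summed deposited FPKM of the listed Obp genes (vertical axis) in each of the 9 libraries (horizontal axis), with the 6 most abundant genes as coloured segments and the other genes in grey. Obp99c is the largest segment of every bar, and the bars of the 3 groups overlap in height.

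Replicates varied more within this family than over all genes. The median coefficient of variation within a group was 21.5% in 412KD, 24.0% in RooKD and 19.5% in scramble for the 21 tested Obp genes. Over all 10599 tested features it was 15.2%, 17.0% and 11.1%. The spread was unequal, since in scramble Obp57b varied by 2.25% and Obp99b by 68.4%.

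No Obp gene passed the main test in any comparison. The main test was the quasi-likelihood test of edgeR with a Benjamini-Hochberg adjusted p of 0.05 over all features. It called 0 of 21 Obp genes in 412KD against scramble, where 0.0192% of all 10431 tested features were called. In RooKD against scramble it called 0 of 20, beside 0.107% of 10305 features, and in 412KD against RooKD 0 of 21, beside 0.0943% of 10599. With so few calls over the whole transcriptome, the absence of a call does not show that the genes were alike. At an unadjusted p under 0.05 the counts were 1 of 21 (Obp56a, background 11.2%), 3 of 20 (Obp56a, Obp99b and Obp49a, 12.7%) and 4 of 21 (Obp49a, Obp19b, Obp56d and Obp83g, 6.02%). Between the hairpins Obp83g passed the filter on low counts only through 412KD and scramble libraries, which favours a difference from RooKD. DESeq2, run as an alternative, called 0 of 27 in 412KD (background 2.97%), 1 of 20 in RooKD (3.41%) and 0 of 21 between the hairpins (0.774%).

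Obp56a (FBgn0034468; 2R, 19697723 to 19698508, forward strand) had the lowest adjusted p of the family in RooKD against scramble. In the normalized counts it had 262, 175 and 260.5 in 412KD, 299, 295 and 303 in RooKD, and 189.6, 95.7 and 139 in scramble. Every RooKD library lay above every scramble library, while 412KD replicate 2 lay below scramble replicate 1. Means were 232 ± 49.9 in 412KD, 299 ± 3.81 in RooKD and 142 ± 47.0 in scramble (SD, n = 3). Against scramble, the log2 fold change in RooKD was 1.09 ± 0.24 (SE), higher in 3 of 3 libraries, with an edgeR adjusted p of 0.156 and a DESeq2 adjusted p of 0.00509. With each of the 6 libraries left out in turn, DESeq2 called it every time (adjusted p of 0.00025 to 0.0464) and edgeR never did (0.135 to 0.482). In 412KD the log2 fold change was 0.71 ± 0.28 (edgeR adjusted p = 0.428), and 412KD against RooKD gave −0.36 ± 0.25 (edgeR adjusted p = 0.975), although every RooKD library lay above every 412KD library. Both comparisons with scramble share its 3 libraries.

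Its neighbour Obp56d, expressed in the same cluster, had 1384, 1275 and 1045 normalized counts in 412KD, 1462, 1730 and 1444 in RooKD, and 1376, 1479 and 1270 in scramble. The RooKD libraries lay above those of 412KD and overlapped scramble. Between the hairpins the log2 fold change was −0.32 ± 0.13 (edgeR adjusted p = 0.791), and against scramble it was −0.16 ± 0.13 in 412KD and 0.18 ± 0.12 in RooKD.

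The fat body list was mixed in RooKD, with a summed level that followed its most abundant genes. The 23 listed genes, led by the yolk protein genes Yp1, Yp2 and Yp3, summed to 1949000 to 2139000 normalized counts in RooKD against 1015000 to 1612000 in scramble and 1048000 to 1817000 in 412KD. In RooKD 15 of the 22 tested genes had a log2 fold change above 0, beside 53.0% of all features. The storage protein genes Lsp1alpha (−2.58) and Lsp1beta (−0.65) and the receptor gene Fbp1 (−4.49) were among those below 0, none of them past either test there. The storage protein genes Lsp2 (0.96) and Lsp1gamma (0.27) were above 0, also without a call. DESeq2 called Yp2, Yp3, FASN1 and fit higher in RooKD and to (−1.04, adjusted p = 0.000642) and CG5966 (−1.13, adjusted p = 0.00426) lower. In 412KD it called FASN1 higher and Lsp1beta, to and CG5966 lower, and it called FASN1 and Lsp1beta lower in 412KD than in RooKD. Each comparison tested 22 genes of the list. Over all features DESeq2 called 3.41% in RooKD, 2.97% in 412KD and 0.774% between the hairpins. The oenocyte and lipid list summed to 149300 to 187000 in RooKD and 127600 to 146600 in 412KD against 76510 to 99550 in scramble. DESeq2 called 3 of its 10 genes higher in RooKD (Desat1, Cyp4g1 and Cpr) and 1 in 412KD (Cyp4g1), beside the same shares of all features. edgeR called no gene of either list. The part of these tissues in the values of Obp56a was not tested.

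**Figure D3:**
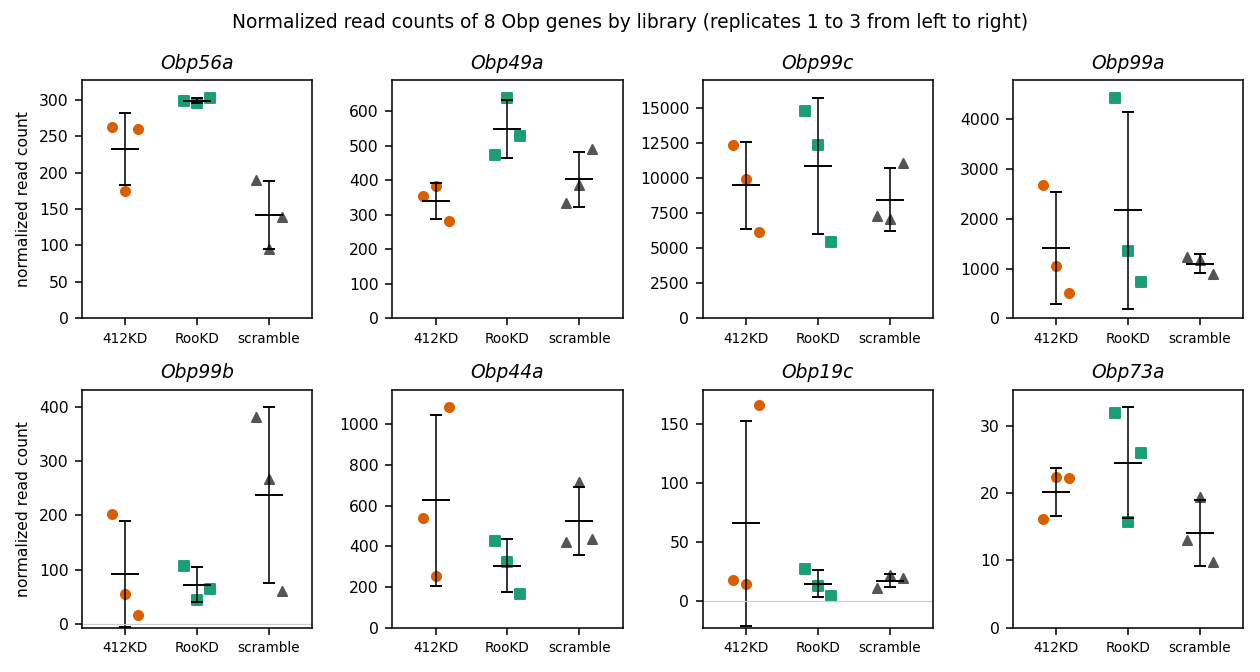
Normalized read counts (vertical axes, linear) of 8 Obp genes in the 3 groups, with 1 point per library from replicate 1 at the left to replicate 3 at the right. Horizontal bars are means and error bars are SDs (n = 3). The RooKD points of Obp56a lie between 295 and 303, above all scramble points, and 1 point of 412KD stands far above the others for Obp19c.

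Among members known from taste bristles, none passed the adjusted test between the hairpins. Obp49a (2R, 12690059 to 12690955, reverse strand), whose product lets bitter compounds suppress the sweet response of taste neurons, had 355, 382 and 281 normalized counts in 412KD, 474, 639 and 529.7 in RooKD, and 333, 385 and 489.6 in scramble. All RooKD libraries lay above all 412KD libraries, and scramble spanned the gap between them. The log2 fold change was −0.69 ± 0.19 between the hairpins (edgeR adjusted p = 0.471), 0.46 ± 0.19 in RooKD against scramble (adjusted p = 0.374) and −0.24 ± 0.18 in 412KD against scramble (adjusted p = 0.648).

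Obp19b, linked to the taste of amino acids, had 278, 443 and 463 normalized counts in 412KD, 429.5, 775 and 697 in RooKD, and 431, 439.8 and 598 in scramble. RooKD replicate 1 fell among the 412KD libraries, so these groups overlapped. Between the hairpins the log2 fold change was −0.68 ± 0.26 (edgeR adjusted p = 0.777). Obp56g had 74.7, 81.8 and 112 normalized counts in 412KD, 85.7, 178 and 157 in RooKD, and 75.3, 77.4 and 156 in scramble, and its log2 fold change between the hairpins was −0.64 ± 0.36 (adjusted p = 0.918). Obp19d, known from antennal and taste organs, was steadier, with 1848, 2054 and 1648 in 412KD, 1754, 2353 and 2221 in RooKD, and 1756, 2204 and 1940 in scramble. For it the 3 log2 fold changes lay between −0.19 and 0.12.

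**Figure D4:**
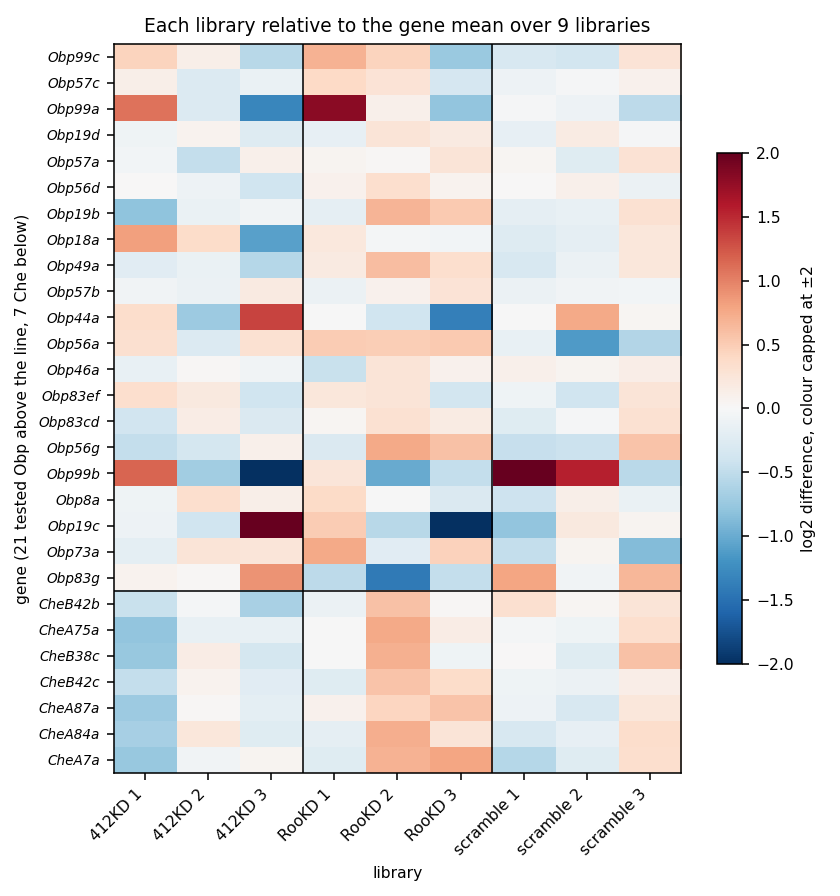
Level of each library relative to the mean of the gene over the 9 libraries, as a log2 difference of normalized counts plus 1 (colour, capped at ±2), for the 21 tested Obp genes above the line and 7 Che genes below it. RooKD replicate 2 is the highest library in 6 of the Obp and 5 of the Che genes (8.65% of all tested features). 412KD replicate 1 is the lowest in 3 and 6 (8.16% of all). Among the Obp genes, RooKD replicate 1 is the highest in 5 (12.8% of all) and 412KD replicate 3 the lowest in 7 (15.9% of all).

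The library pattern of Obp19b and Obp56g recurred in genes of another family. CheA and CheB genes encode secreted proteins of taste bristles, and 7 of them were tested, CheA7a, CheA75a, CheA84a, CheA87a, CheB38c, CheB42b and CheB42c. Their summed normalized counts were 1132, 1788 and 1609 in 412KD, 1684, 2847 and 2385 in RooKD, and 1644, 1623 and 2228 in scramble, highest in RooKD replicate 2 and lowest in 412KD replicate 1. RooKD replicate 2 was the highest and 412KD replicate 1 the lowest library for Obp19b and Obp56g, 2 of the 21 tested Obp genes, and for 4 of the 7 Che genes, against 1.02% of all 10599 tested features. This count was chosen after the values were seen and describes libraries of these pools. The amount of leg, wing or neck tissue in each pool was not measured, and its part in these values was not tested.

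The most abundant member, Obp99c (3R, 29685736 to 29689311, reverse strand), varied between libraries of each group. Its normalized counts were 12370, 9908 and 6178 in 412KD, 14770, 12390 and 5420 in RooKD, and 7292, 7058 and 11040 in scramble. The lowest and the highest of all 9 libraries both belonged to RooKD. The log2 fold changes against scramble were 0.17 ± 0.29 in 412KD (edgeR adjusted p = 0.855) and 0.37 ± 0.37 in RooKD (0.709). Obp99c overlaps Gycalpha99B on the other strand, and the sources used here do not say whether counting used strand, so reads of their overlap may belong to either gene.

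Obp99a, its neighbour in the cluster, had 2686, 1046 and 509 normalized counts in 412KD, 4434, 1357 and 728 in RooKD, and 1235, 1172 and 879.5 in scramble. It spanned 5.27-fold within 412KD and 6.09-fold within RooKD but 1.40-fold within scramble. The log2 fold change in RooKD was 0.99 ± 0.67 (edgeR adjusted p = 0.581) and was −0.05 without RooKD replicate 1. In 412KD it was 0.37 ± 0.56 (adjusted p = 0.831) and −0.49 without 412KD replicate 1, so its direction rested on 1 library in each comparison.

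Obp99b (3R, 29716254 to 29716896, reverse strand), also named turn on sex-specificity (tsx) for its sex-dependent expression in fat body of the head, lay lower in most hairpin libraries. It had 203, 56.0 and 17.7 normalized counts in 412KD, 108, 44.7 and 64.9 in RooKD, and 382, 268 and 61.9 in scramble. Scramble replicates 1 and 2 were the highest of the 9 libraries, while scramble replicate 3 lay among the hairpin libraries. The log2 fold change was −1.70 ± 0.66 in RooKD (edgeR adjusted p = 0.374, DESeq2 adjusted p = 0.053) and −1.38 ± 0.96 in 412KD (edgeR adjusted p = 0.622). DESeq2 called it in RooKD without scramble replicate 3 (−2.15, adjusted p = 2.04e-05) or without RooKD replicate 1 (−2.09, adjusted p = 0.0166), and in 412KD without 412KD replicate 1 (−2.67, adjusted p = 0.0227). With other single libraries left out its DESeq2 adjusted p reached 0.757 in RooKD and 0.9998 in 412KD. Obp99d, which lies beside Obp99b, was at 0.186 to 0.653 FPKM.

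Obp44a (2R, 8134170 to 8135315, reverse strand), known as an abundant protein of glia, had 540.2, 255 and 1083 normalized counts in 412KD, 423.5, 322 and 165 in RooKD, and 419.8, 717 and 433.5 in scramble. The highest and lowest libraries were 412KD replicate 3 and RooKD replicate 3, 6.57-fold apart. The glial gene repo was at 362 to 572 over the same libraries. The 19 genes of the glia and nervous system list, which also holds neuronal genes, summed to 53890 to 65510. The part of glia in the values of Obp44a was not tested. The log2 fold change of Obp44a was −0.78 ± 0.36 in RooKD (edgeR adjusted p = 0.421), 0.26 ± 0.51 in 412KD (adjusted p = 0.870, and −0.40 without 412KD replicate 3) and 1.04 ± 0.54 between the hairpins (adjusted p = 0.901). Obp44a overlaps Pabp2 on the other strand.

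In Obp19c (X, 20417921 to 20418964, reverse strand) a single library set the fold changes that involve 412KD. The gene had 17.2, 13.8 and 166 normalized counts in 412KD, 26.9, 12.3 and 3.90 in RooKD, and 10.4, 21.4 and 19.4 in scramble. Its level in 412KD replicate 3 was 12.0 times that of 412KD replicate 2. The log2 fold change of 1.95 ± 1.02 in 412KD (edgeR adjusted p = 0.519) became −0.14 ± 0.46 without that library (adjusted p = 0.930). Against RooKD the log2 fold change was 2.16 ± 1.02 (edgeR adjusted p = 0.871), and 0.075 without that library. The same library had the highest sum of ovary and germline transcripts, 41600. RooKD replicate 1, with the next sum of 23370, had 26.9 counts of Obp19c, and the remaining libraries had 3.90 to 21.4. The part of ovarian RNA was not tested.

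Obp73a is of interest because the reference genome carries a copy of roo inside it. On dm6 the gene spans 3L, 16944361 to 16954942, on the forward strand, and an annotated insertion of roo spans 16945783 to 16954877 on the same strand, 9095 bases. In one annotated transcript the insertion lies within the last intron, between the exons 16945555 to 16945779 and 16954880 to 16954942. In the other, the last exon (16945555 to 16945878) shares 96 bases with it. Whether the flies sequenced carry this insertion was not tested. Obp73a had 16.1, 22.4 and 22.2 normalized counts in 412KD, 31.9, 15.6 and 26.0 in RooKD, and 13.0, 19.3 and 9.68 in scramble. No library of RooKD lay below the lowest of scramble, and the groups overlapped. The log2 fold change was 0.82 ± 0.43 in RooKD (edgeR adjusted p = 0.467) and 0.54 ± 0.37 in 412KD (adjusted p = 0.615), and Obp73a also overlaps Ogdh and Cpr73D, so its few reads are uncertain.

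The 3 expressed genes at 57 differed in how far their libraries spread. Obp57c had 2142, 1648 and 1802 normalized counts in 412KD, 2615, 2401 and 1570 in RooKD, and 1847, 1958 and 2111 in scramble. Obp57a had 938, 703 and 1052 in 412KD, 1009, 995 and 1165 in RooKD, and 1002, 823 and 1195 in scramble. Obp57b had 422, 409 and 503 in 412KD, 410.6, 470.2 and 536 in RooKD, and 410.3, 423.5 and 429 in scramble. Within a group Obp57b varied by 2.25% to 13.3%, while Obp57c reached 25.2% in RooKD and Obp57a 19.8% in 412KD. In all of these the groups overlapped, and the log2 fold changes against scramble lay between −0.16 and 0.18.

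The double-domain genes Obp83cd and Obp83ef lie tail to tail on opposite strands and overlap, so their counts may be mixed. Obp83cd had 159, 230.0 and 169 normalized counts in 412KD, 214, 256 and 232 in RooKD, and 175, 205 and 256 in scramble. Obp83ef had 325, 296 and 195 in 412KD, 302, 309 and 199.9 in RooKD, and 242, 195.5 and 309.6 in scramble. Neither pattern followed the groups, and the log2 fold changes against scramble lay between −0.19 and 0.16. Next to them Obp83g was close to the limit of detection. It had 7, 9 and 17 reads in the 412KD libraries, 5, 2 and 4 in RooKD, and 16, 7 and 13 in scramble. All 412KD libraries were above all RooKD libraries. Between the hairpins its log2 fold change was 1.30 ± 0.54 (edgeR adjusted p = 0.795), and the gene was too low in RooKD to be tested against scramble. It entered the test between the hairpins only through its 412KD and scramble counts, which favours a separation from RooKD.

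Obp18a had 944, 689.9 and 252 normalized counts in 412KD, 619, 520.5 and 515 in RooKD, and 446, 471 and 629 in scramble. Both the highest and the lowest library belonged to 412KD, and its log2 fold changes against scramble were 0.28 ± 0.45 in 412KD and 0.11 ± 0.16 in RooKD. Obp46a had 161, 183 and 170.1 in 412KD, 131.5, 214.5 and 191 in RooKD, and 192, 185 and 197 in scramble. It was the one tested gene whose 412KD libraries all lay outside those of scramble, 1 of 21 beside 17.8% of all tested features, and its log2 fold change was −0.16 ± 0.12 (edgeR adjusted p = 0.657). Obp8a had 70.1, 93.9 and 80.6 in 412KD, 97.7, 73.7 and 61.0 in RooKD, and 55.4, 80.4 and 67.7 in scramble, and its log2 fold changes against scramble were 0.27 ± 0.23 and 0.20 ± 0.27.

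Over the tested members the sign of the fold change was uneven in RooKD. The genes were read in the same pools and are not independent, so the share of signs is a description and not a test. The 2 comparisons with scramble share its libraries and were not tested against each other. In RooKD against scramble 16 of 20 tested genes had a log2 fold change above 0, with a median of 0.17, where 53.0% of all features were above 0 with a median of 0.02. In 412KD against scramble 10 of 21 were above 0, with a median of −0.08, against 51.0% and 0.01 for all features. Between the hairpins 7 of 21 were above 0, with a median of −0.20, against 50.7% and 0.00. The median size of the log2 fold change was 0.20 in both comparisons with scramble (0.17 and 0.19 for all features) and 0.32 between the hairpins (0.14). Libraries of the groups did not overlap for Obp56a alone in RooKD against scramble (1 of 20, background 18.7%) and for Obp49a, Obp56d, Obp56a and Obp83g between the hairpins (4 of 21, background 9.09%). Obp83g passed the filter on low counts there only through 412KD and scramble libraries, which favours its separation from RooKD.

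**Figure D5:**
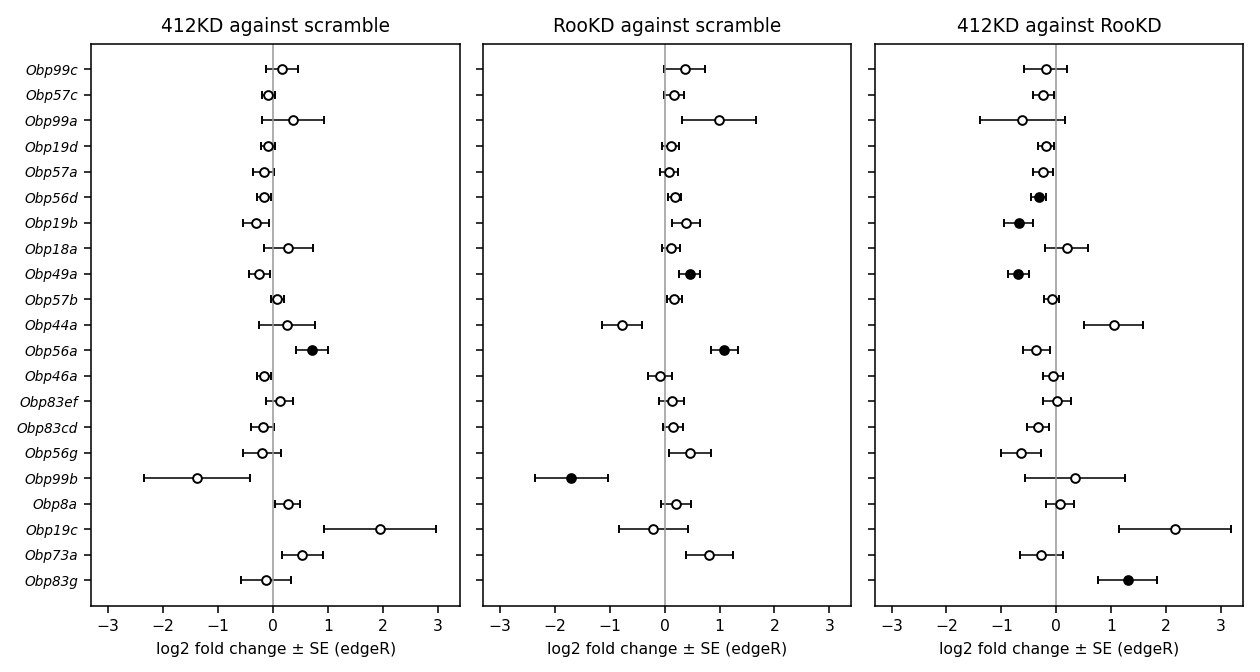
edgeR log2 fold changes (horizontal axes) of the tested Obp genes (vertical axis, by mean FPKM) in the 3 comparisons, with bars of 1 SE. Filled points have an unadjusted p under 0.05, and none passes an adjusted p of 0.05. Obp56a and Obp99b have the largest filled values in RooKD, at 1.09 and −1.70.

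Other binding-protein genes gave no call by edgeR. The list of OBP-like genes outside the name rule had 22 listed genes, and 11 of them were tested in 412KD. Among these the carrier-protein gene EbpIII had 18530 to 30900 normalized counts over the libraries, Pino had 6732 to 9919 and Phk-3, a chemosensory-protein gene, had 548 to 1717. The 7 tested Che genes lay between 48.3 and 819, lush was low, and the other 11 listed genes were at most 14.3 in any library. All 11 tested genes of that list had log2 fold changes below 0 in 412KD (median −0.21), where 51.0% of all features were above 0. In RooKD 6 of 10 were above 0 (median 0.18), beside 53.0% of all features. edgeR called 0 of these genes in either comparison, and DESeq2 called Phk-3 lower in RooKD (−0.61, adjusted p = 0.0484). Over all features DESeq2 called 2.97% in 412KD and 3.41% in RooKD. In the list of chemosensory receptors and membrane proteins, 14 genes were tested in 412KD and 12 in RooKD, and edgeR called 0 and DESeq2 called 1 in each, the fructose receptor gene Gr43a. Its normalized counts were 95.4, 162 and 33.7 in 412KD, 8.97, 48.0 and 14.3 in RooKD, and 1407, 2613 and 893 in scramble.

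In the list of antennal support and odorant-degrading genes, edgeR called 0 of 6 in both comparisons with scramble. By DESeq2, 2.97% of all features were called in 412KD and 3.41% in RooKD. DESeq2 called antdh, an antennal dehydrogenase gene, higher in 412KD (log2 fold change 0.88, adjusted p = 0.00578) and in RooKD (1.17, adjusted p = 0.000246), and Cyp6w1 higher in RooKD (0.59, adjusted p = 0.00161). antdh had 163, 175 and 149 normalized counts in 412KD, 204, 216 and 170.1 in RooKD, and 91.8, 76.4 and 96.8 in scramble. The seminal fluid list held 27 genes, and the 25 listed for both hairpins had sums of 288 to 431 over the libraries. These were led by lectin-46Ca with 109 to 203 and lectin-46Cb with 109 to 198. Of the list edgeR called 0 of 3 in 412KD and 0 of 4 in RooKD.

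Lists for other tissues gave 0 calls by edgeR. Gut genes summed to 593700 to 798700 in 412KD, 411700 to 484500 in RooKD and 296800 to 398100 in scramble, and DESeq2 called 16 of 31 higher in 412KD (2.97% of all features were called in either direction). In RooKD it called 5 of 30 higher and 1 lower, beside 3.41% of all features, and between the hairpins 4 of 32 higher in 412KD, beside 0.774%. Hemocyte genes summed to 54820 to 96040 over the libraries, flight muscle genes to 382100 to 486600, and cuticle and trachea genes to 8293 to 16140. DESeq2 called 2 of 17 hemocyte genes lower in 412KD (background 2.97%). In RooKD it called 1 of 22 flight muscle and 1 of 15 cuticle genes lower (background 3.41%). Between the hairpins 1 of 15 cuticle genes was called higher in 412KD (background 0.774%). Of the ovary and germline list it called 5 of 14 genes higher in 412KD (background 2.97%) and 1 of 11 in RooKD (3.41%). The called genes yl and dhd passed the filter on low counts only through 412KD libraries, which favours a call there. Reads of yl were 578, 12 and 4945 in 412KD and 3, 0 and 0 in scramble. Those of dhd were 304, 25 and 5138 in 412KD and 8, 3 and 2 in scramble. Replicate 3 held most of the 412KD reads of both genes. Of the 19 glia and nervous system genes it called none in any comparison. The part of these tissues in the values of the Obp genes was not tested.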

How the data were processed

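Raw read counts per gene stand in the deposited tables, 1 table per hairpin with the same scramble libraries, per the file headers, and FPKM was scaled by the authors. FPKM equals the count per kilobase divided by a library total that differs from the summed counts by a factor of 0.951 to 1.12. The deposited signal, log2 fold changes and p-values of the authors were used only for checks. HISAT2, DESeq2 and dm6 are named in the submitters' processing notes, and the sources used here do not state strand use.

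The main fit used edgeR 4.0.16 under R 4.3.3 (TMM, filterByExpr, robust quasi-likelihood) on the 6 libraries of each table and, between hairpins, all 9 over shared features. DESeq2 1.42.0 was an alternative. Normalized counts are reads scaled to an effective library of 21937972. 6 low-complexity features (0.00191% to 0.244% of reads) were left out. Named were members with a mean of at least 50 normalized counts or an unadjusted p under 0.05, with others given by range, and Obp19c and Obp73a were chosen after their values were seen. Members, lists and tests were chosen with earlier results of these data known. Tissue lists hold genes known from each tissue, and whether each gene is restricted to it was not tested. The fit was also run on simulated counts, drawn for each gene separately from the fitted spread and without libraries that stand apart. That run does not bear on how the fit handles these libraries.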

Additional observations from a re-analysis of the deposited data

How the results depend on the processing

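No edgeR alternative called an Obp gene in any comparison: other normalizations, no filter, other libraries in the fit, a block or single libraries left out gave 0. DESeq2 called 1 in RooKD, Obp56a, and with single libraries left out, which was added after seeing the data, 0 to 1 in 412KD, 1 to 2 in RooKD and 0 between the hairpins. The extra calls were Obp99b, and Obp99a without RooKD replicate 3. Over all genes edgeR called 2 in 412KD, 11 in RooKD and 10 between the hairpins. In 412KD the count was 14 with library totals alone, 15 with no filter, 337 by DESeq2, 14 with all 9 libraries, and 0 to 105 with 1 library left out (187 to 526 by DESeq2). In RooKD it was 26 with no filter, 346 by DESeq2 and 0 to 44 with 1 library left out (108 to 561 by DESeq2). Between the hairpins it was 81 by DESeq2, 4 with the 6 hairpin libraries alone, 2 to 22 with 1 library left out (59 to 210 by DESeq2) and 70 without both libraries with high germline transcripts.

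Replicate numbers were not treated as pairs in the main fit. Same-numbered deviations correlated at 0.0806, 0.112 and 0.107 (412KD and scramble), 0.245, −0.0281 and 0.0672 (RooKD and scramble) and 0.00887, 0.383 and −0.208 (both hairpins). These values cannot show that the pools were unpaired. With the replicate block edgeR called 0 genes in 412KD, 10 in RooKD and 4 between the hairpins. In 412KD against scramble the block narrowed the SE of Obp99b from 0.96 to 0.31 (edgeR adjusted p = 0.204). It narrowed that of Obp56a from 0.28 to 0.16 (edgeR adjusted p = 0.225). The SEs of Obp99c (0.29 to 0.35) and Obp44a (0.51 to 0.60) widened.

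Directions turned for uncalled genes. In 412KD against scramble, leaving out single libraries gave Obp99a −0.49 to 0.77, Obp99c −0.072 to 0.41, Obp19c −0.14 to 2.44 and Obp44a −0.40 to 0.64. In RooKD, Obp99a ran from −0.053 to 1.40. Between the hairpins, Obp99a ran from −1.48 to 0.43 and Obp99c from −0.52 to 0.089, and without both libraries with high germline transcripts they stood at 0.82 and 0.30. The cause was not tested. Obp83g, with 2 to 17 reads in a library, and Obp73a were close to what this depth can show.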
